A study of Rattus norvegicus with 11 samples.

Results

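Transcripts of 38 rat genes of the hypoxia response and of glycolysis were followed in 11 cultures of dorsal root ganglion (DRG) sensory neurons. The genes were taken from a list of targets and regulators of the hypoxia-inducible factors (HIF) and of enzymes and transporters of glycolysis, and every listed gene with a row in the deposited table was kept. All 38 had a row among 22076, 37 under the listed symbol and Car9 as Ca9, its RefSeq synonym. The neurons came from wild-type Sprague-Dawley rats at embryonic day 15, were purified by immunopanning, and were lysed for RNA on day 14 in vitro. There were 3 untreated cultures, 4 given medium conditioned by Schwann cells (SCCM) and 4 given 1 µM prostaglandin E2 (PGE2), both overnight from day 13. Each culture pooled 10 to 18 embryos of 1 pregnant rat, which the submitters counted as 1 biological replicate. The series concerns signals from Schwann cells, which wrap the axons of peripheral nerves, to developing sensory neurons, with PGE2 as a lipid that Schwann cells secrete according to its title.

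Glycolysis splits glucose into pyruvate, and lactate dehydrogenase converts pyruvate to lactate when it is not burnt in mitochondria. HIF is a pair of an oxygen-regulated alpha subunit (Hif1a or Epas1) and a stable partner (Arnt or Arnt2). With oxygen present, prolyl hydroxylases of the Egln family mark the alpha subunit for destruction, so HIF is set mainly at the level of protein, and when it is stable it raises glucose uptake, glycolytic enzymes, blood vessel signals and its own hydroxylases. Neurons in culture use both glycolysis and respiration.

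Transcript levels are given as fragments scaled by transcript length and library size (FPKM). Between 15664 and 17137 genes were above 0 in a library. Relative depth, read from the steps between the values of rarely seen genes, was estimated to differ by 1.29-fold between the deepest and the shallowest library. This estimate is indirect, with a largest misfit for a pair of libraries of 0.30 on the log2 scale. Prph and Tubb3, markers of sensory neurons, lay between 1831 and 3280 FPKM and between 828 and 1659 FPKM, and none of 14 such markers was under 1 FPKM throughout. Other markers varied more, such as Nefl from 476 to 2372 FPKM and Isl1 from 4.55 to 22.8 FPKM. The 14 summed to 12244, 10782 and 7300.5 FPKM in untreated replicates 1 to 3. In SCCM they summed to 9061 to 13314 FPKM, lowest in replicate 4, and in PGE2 to 12037 to 13102 FPKM. The part of these differences in the listed genes was not tested. Libraries of 1 treatment differed widely, with SCCM replicates 2 and 3 and PGE2 replicates 3 and 4 standing apart from the other treated cultures in the genes described here. Because RNA was taken from whole cultures, fewer cells of a type and less RNA per cell cannot be told apart.

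Cultures given the same treatment differed widely in the hypoxia and glycolysis genes. For 36 genes the mean over libraries reached 1 FPKM, the minimum for testing. Of these, the level in SCCM replicate 2 was below all 3 untreated libraries for 30, against 47.2% of all 12107 tested genes. In SCCM replicate 3 the count was 30 (49.4% of all tested genes), in PGE2 replicate 3 it was 29 (46.5%) and in PGE2 replicate 4 it was 30 (52.3%). In the other 4 treated cultures fewer genes lay below the untreated range, with 14 in SCCM replicate 1 (13.9% of all tested genes), 15 in SCCM replicate 4 (34.5%), 13 in PGE2 replicate 1 (28.2%) and 5 in PGE2 replicate 2 (16.4%). PGE2 replicate 2 was above all untreated libraries for 10 genes, where 17.7% of all tested genes were. In SCCM replicates 1 to 4 the counts above were 7, 3, 3 and 6 (21.3, 23.8, 22.1 and 25.5% of all tested genes), and in PGE2 replicates 1, 3 and 4 they were 4, 3 and 3 (15.9, 23.6 and 22.6%). In SCCM replicates 2 and 3 and PGE2 replicates 3 and 4 these 3 always included Hk1 and Pfkm, with Ldhb in SCCM replicate 2 and PGE2 replicate 3 and Hif1a in SCCM replicate 3 and PGE2 replicate 4.

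The 38 genes together made up 0.799, 0.951 and 0.904% of all FPKM in untreated replicates 1 to 3. Their share was 0.820, 0.511, 0.481 and 0.810% in SCCM replicates 1 to 4, and 0.886, 0.920, 0.494 and 0.431% in PGE2 replicates 1 to 4. Both treated groups thus held cultures inside or near the untreated range and cultures well under it. The lowest library was PGE2 replicate 4 for 20 of the 36 genes and SCCM replicate 3 for 6, and the highest was untreated replicate 3 for 12, untreated replicate 2 for 6 and PGE2 replicate 2 for 5. Untreated replicate 3 was also the lowest for 4. The matching shares over all tested genes were not counted. PGE2 replicate 4 also had the lowest median over all tested genes, at −0.21 on the log2 scale from the gene means. The median of the listed genes there was −0.96, and whether its count is particular to the list was not tested.

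**Figure D1:**
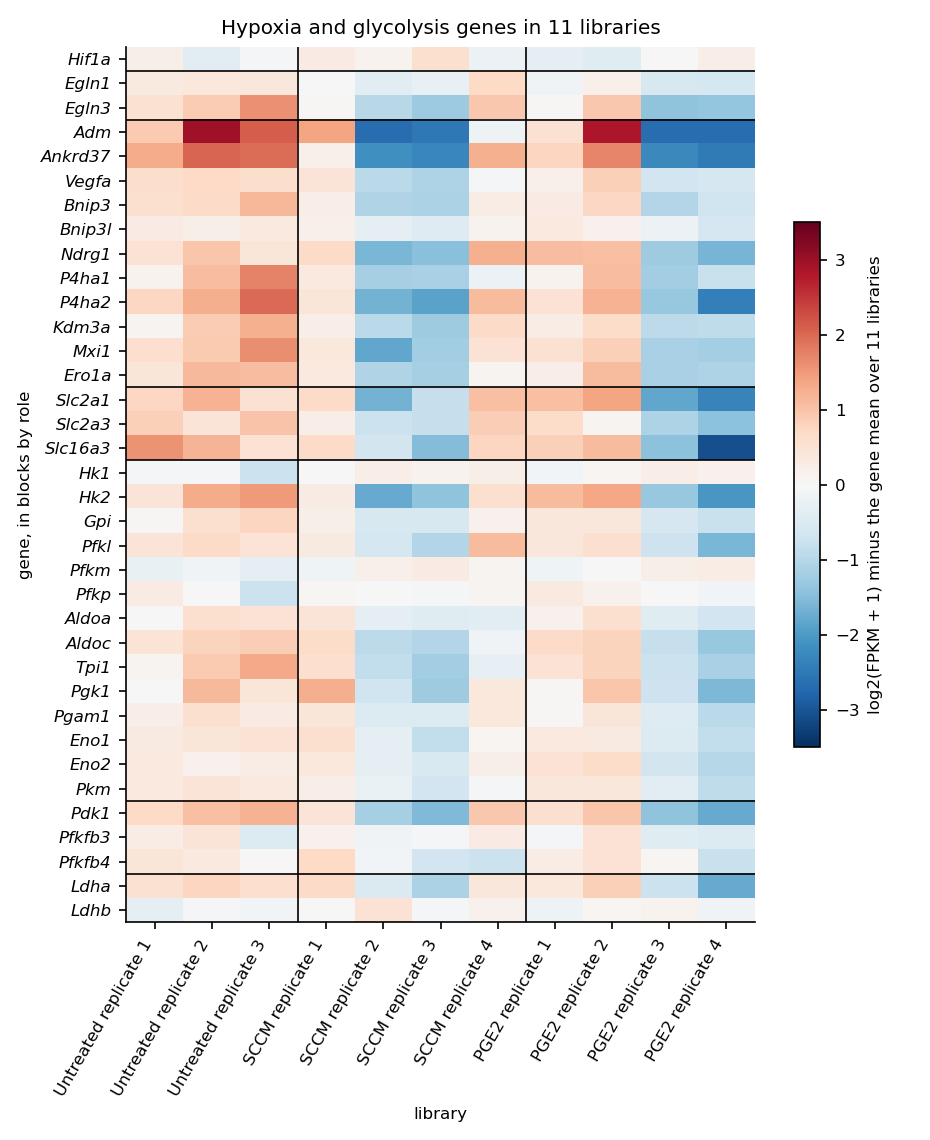
Deviation of log2(FPKM + 1) from the gene's mean over 11 libraries, for the 36 tested genes (rows, in blocks by role) in each library (columns). SCCM replicates 2 and 3 and PGE2 replicates 3 and 4 are blue (below the mean) for most genes, and Hk1 and Pfkm are above their means in all 4 of these libraries.

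Of the oxygen-regulated alpha subunits, Hif1a was expressed and Epas1 was almost not. Hif1a, the alpha subunit, measured 18.8, 12.2 and 15.6 FPKM in untreated replicates 1 to 3, 20.02, 17.7, 24.5 and 13.9 FPKM in SCCM replicates 1 to 4 and 13.03, 11.9, 16.3 and 19.2 FPKM in PGE2 replicates 1 to 4. The groups overlapped, and Hif1a was highest in SCCM replicate 3, where most of the listed genes were low. Epas1, the second alpha subunit, stayed between 0 and 0.17 FPKM and was not tested.

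Both listed hydroxylases were less abundant than Egln2, a further form outside the list that lay between 54.8 and 91.03 FPKM. Egln1 measured 21.5, 22.2 and 22.6 FPKM untreated, 17.2, 12.6, 13.9 and 28.04 FPKM in SCCM and 15.6, 19.2, 11.3 and 10.7 FPKM in PGE2. Every PGE2 library was below every untreated one, while SCCM replicate 4 was the highest of all. Egln3, which is itself a strongly HIF-induced gene, measured 4.14, 5.60 and 9.81 FPKM untreated, 2.66, 0.80, 0.46 and 5.76 FPKM in SCCM and 2.65, 5.75, 0.33 and 0.38 FPKM in PGE2. Its share of the summed Egln1 and Egln3 FPKM was 16.1 to 30.3% in untreated libraries and 3.20 to 5.96% in SCCM replicates 2 and 3 and 2.85 and 3.44% in PGE2 replicates 3 and 4.

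Among HIF targets outside glycolysis, Adm and Ankrd37 had the widest ranges of all listed genes tested. Adm, which encodes the vasodilator peptide adrenomedullin, measured 12.9, 56.5 and 30.9 FPKM untreated, 18.1, 0.15, 0.29 and 5.48 FPKM in SCCM and 9.63, 51.1, 0.16 and 0.15 FPKM in PGE2. In SCCM replicates 2 and 3 and PGE2 replicates 3 and 4 it was near the limit of what FPKM can show, whereas PGE2 replicate 2 was second only to untreated replicate 2. Ankrd37, an ankyrin-repeat gene induced by HIF, measured 17.1, 29.3 and 27.8 FPKM untreated, 7.34, 0.68, 0.51 and 16.4 FPKM in SCCM and 11.4, 23.1, 0.55 and 0.34 FPKM in PGE2. All 4 SCCM libraries lay under the untreated range, although SCCM replicate 4 missed it by less than 1 FPKM.

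Vegfa, the main growth factor for blood vessels, was even among the untreated libraries at 45.00, 48.2 and 45.2 FPKM. It measured 40.1, 14.7, 13.4 and 27.8 FPKM in SCCM and 33.5, 52.95, 17.95 and 19.1 FPKM in PGE2, so that SCCM did not overlap with untreated and PGE2 replicate 2 was the highest library. Bnip3, a receptor that marks mitochondria for removal, measured 19.8, 21.2 and 30.2 FPKM untreated, 15.3, 5.75, 5.42 and 15.6 FPKM in SCCM and 15.98, 22.00, 5.81 and 7.62 FPKM in PGE2. Its paralog Bnip3l, which has the same function, varied less, at 25.97, 24.2 and 26.8 FPKM untreated, 24.1, 16.3, 14.97 and 22.9 FPKM in SCCM and 27.00, 23.3, 17.99 and 13.7 FPKM in PGE2. Bnip3 made up 43.2 to 52.9% of the summed Bnip3 and Bnip3l FPKM in untreated libraries, 26.1 and 26.6% in SCCM replicates 2 and 3, and 24.4 and 35.8% in PGE2 replicates 3 and 4.

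P4ha1 and P4ha2, the catalytic subunits of the enzyme that hydroxylates collagen prolines, differed in their lowest levels. P4ha1 measured 30.96, 61.02 and 95.9 FPKM untreated, 36.2, 11.9, 12.3 and 24.5 FPKM in SCCM and 31.1, 60.3, 11.6 and 15.9 FPKM in PGE2. P4ha2 measured 13.5, 20.2 and 33.4 FPKM untreated, 10.8, 1.78, 1.38 and 17.9 FPKM in SCCM and 11.3, 19.3, 2.51 and 0.67 FPKM in PGE2, the lowest being PGE2 replicate 4. For both genes untreated replicate 3 was the highest library and untreated replicate 1 the lowest untreated one.

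Ero1a, an oxidase that forms disulfide bonds in the endoplasmic reticulum, measured 82.7, 137 and 131 FPKM untreated, 78.2, 29.4, 26.96 and 65.6 FPKM in SCCM and 72.8, 135, 27.8 and 28.6 FPKM in PGE2. Mxi1, an antagonist of Myc, measured 7.95, 10.3 and 17.4 FPKM untreated, 6.74, 0.70, 1.60 and 7.53 FPKM in SCCM and 7.76, 9.64, 1.71 and 1.65 FPKM in PGE2. Neither overlapped between SCCM and untreated, and SCCM replicates 1 and 4 were nearest to the untreated range. Kdm3a, a histone demethylase, ranged from 2.46 FPKM in SCCM replicate 3 to 18.6 FPKM in untreated replicate 3, and Ndrg1, a stress-responsive gene known in Schwann cells for its role in myelin maintenance, from 0.55 FPKM in PGE2 replicate 4 to 10.3 FPKM in SCCM replicate 4. Car9, a HIF-induced carbonic anhydrase often used as a marker of hypoxia in tumours, stayed between 0.09 and 0.76 FPKM in all libraries and was not tested.

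HIF binds a short core in DNA, so the 250 bases before the start of each gene were searched on both strands for ACGTG and for GCGTG, with RefSeq windows on the rat assembly GRCr8. Windows were found for 33 of the 38 genes, 39 windows in all because some genes have several starts. ACGTG was in 14 of the 39 (35.9%) against 16.6% of all 33469 windows and 22.2% of the 9737 windows of tested genes. GCGTG was in 16 (41.0%) against 25.9 and 45.7%. GC content was a median of 63.6% in the members' windows, 51.2% in all windows and 60.8% in those of tested genes, and its part in the motif counts was not tested. Of the genes that held ACGTG, the 3 with the largest ratio of highest to lowest library were Ankrd37, P4ha2 and Mxi1, and their upstream windows are shown 5′ to 3′ to place the core, with ACGTG and its reverse complement in capitals.
Ankrd37: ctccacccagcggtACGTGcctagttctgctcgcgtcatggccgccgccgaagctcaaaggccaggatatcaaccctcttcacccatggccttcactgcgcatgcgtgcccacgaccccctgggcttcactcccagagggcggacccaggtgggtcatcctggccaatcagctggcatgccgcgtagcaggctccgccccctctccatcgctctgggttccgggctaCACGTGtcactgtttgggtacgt
P4ha2: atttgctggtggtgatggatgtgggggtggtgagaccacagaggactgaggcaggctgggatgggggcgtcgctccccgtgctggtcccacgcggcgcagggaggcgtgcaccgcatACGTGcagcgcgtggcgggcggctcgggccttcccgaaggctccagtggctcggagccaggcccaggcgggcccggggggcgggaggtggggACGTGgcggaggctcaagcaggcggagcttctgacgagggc
Mxi1: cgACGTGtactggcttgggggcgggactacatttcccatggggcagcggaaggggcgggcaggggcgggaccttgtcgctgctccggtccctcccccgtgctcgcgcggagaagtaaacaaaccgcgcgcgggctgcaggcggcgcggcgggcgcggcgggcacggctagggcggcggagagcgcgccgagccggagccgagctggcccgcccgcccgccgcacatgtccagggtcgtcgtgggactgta
These windows are chr16:53001257-53001506, chr10:38743644-38743893 and chr1:262348392-262348641, all on GRCr8 and the plus strand. In Ankrd37 the first match starts 236 bases before the gene start, and the other 2 overlap as the palindrome CACGTG at 23 bases before it. P4ha2 has matches at 133 and 41 bases, and Mxi1 has 1 at 248 bases. Neither core was in the windows of Adm, the gene with the widest range, Slc16a3 or Egln3. For Slc16a3 the ratio of highest to lowest library was 56.8, above P4ha2 at 49.8. For Egln3 it was 29.7, above Mxi1 at 24.9. The window of Hif1a held 3 matches of ACGTG, of which a pair overlaps as CACGTG. A match is a description of these letters and not a binding site.

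Transporters for glucose entry and lactate exit were lowest in the same libraries. Slc2a1, the glucose transporter found on most cells, measured 42.2, 59.6 and 36.9 FPKM untreated, 40.8, 7.26, 13.9 and 53.1 FPKM in SCCM and 53.5, 67.4, 6.49 and 4.17 FPKM in PGE2. Slc2a3, the high-affinity transporter typical of neurons, measured 72.1, 54.99 and 79.6 FPKM untreated, 46.8, 23.1, 22.1 and 72.3 FPKM in SCCM and 61.8, 42.4, 18.1 and 13.9 FPKM in PGE2. The summed FPKM of both transporters was 114 to 116 in untreated libraries, 30.3 and 36.05 in SCCM replicates 2 and 3, and 24.6 and 18.1 in PGE2 replicates 3 and 4, while SCCM replicate 4 at 125 and PGE2 replicates 1 and 2 at 115 and 109.8 stayed near the untreated level. Slc16a3, which exports lactate, measured 42.1, 32.4 and 19.6 FPKM untreated, 22.1, 8.36, 4.12 and 23.5 FPKM in SCCM and 24.9, 30.6, 4.42 and 0.74 FPKM in PGE2, a range from PGE2 replicate 4 to untreated replicate 1 that was the third widest among the tested genes after Adm and Ankrd37.

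**Figure D2:**
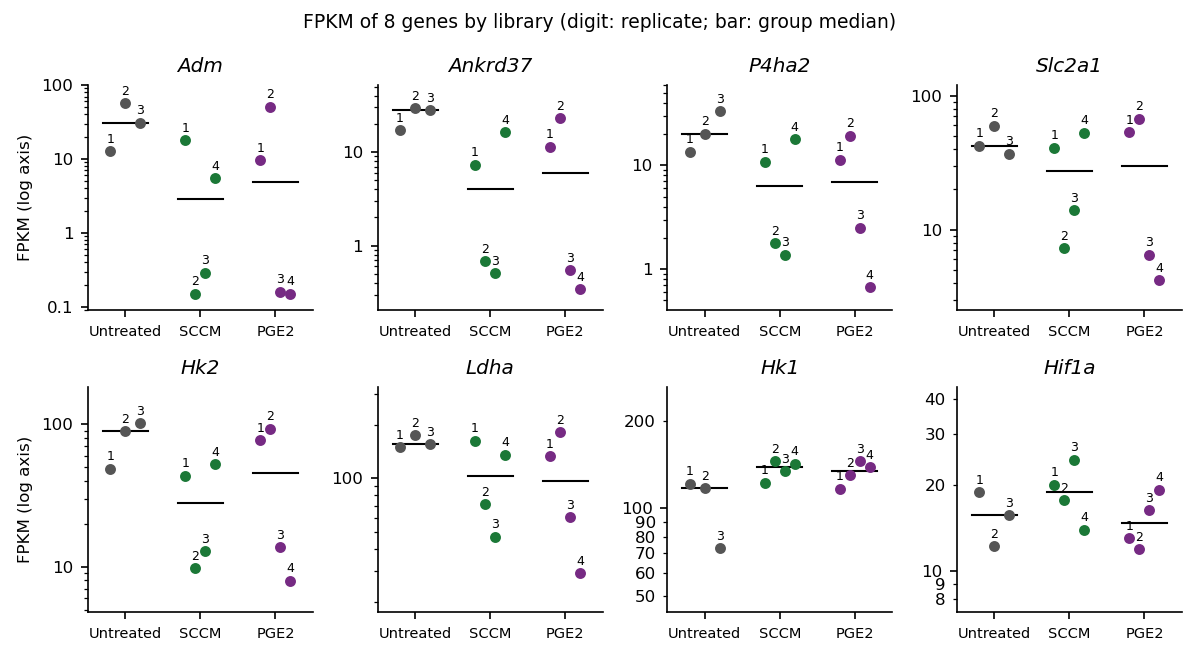
FPKM on a log axis of 8 genes in each library, grouped as untreated (n = 3), SCCM (n = 4) and PGE2 (n = 4), with the replicate number at each point and the group median as a bar. The first 6 genes are lowest in SCCM replicates 2 and 3 and PGE2 replicates 3 and 4, whereas Hk1 and Hif1a are not.

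At the first step of glycolysis the isozymes differed in how they varied. Hk2, the inducible hexokinase, measured 48.6, 89.3 and 102 FPKM untreated, 43.4, 9.78, 12.9 and 52.5 FPKM in SCCM and 77.3, 92.9, 13.7 and 7.96 FPKM in PGE2. Hk1, the constitutive hexokinase of neurons, measured 121, 118 and 73.1 FPKM untreated, 123, 145, 134 and 142 FPKM in SCCM and 117, 129.9, 146 and 138 FPKM in PGE2. In SCCM replicates 2 and 3 and PGE2 replicates 3 and 4, where Hk2 was lowest, Hk1 lay between 134 and 146 FPKM. Hk2 made up 28.6, 43.2 and 58.2% of the summed hexokinase FPKM in untreated replicates 1 to 3, 26.1, 6.30, 8.75 and 26.9% in SCCM and 39.8, 41.7, 8.58 and 5.44% in PGE2. The sum of Hk1 and Hk2 moved far less, from 146 FPKM in PGE2 replicate 4 to 223 FPKM in PGE2 replicate 2.

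Phosphofructokinase, the main control point of the pathway, had 3 subunits that differed in the same way. Pfkl, the liver-type subunit, measured 66.4, 78.2 and 68.6 FPKM untreated, 60.7, 31.4, 23.2 and 107 FPKM in SCCM and 63.8, 71.7, 28.9 and 15.3 FPKM in PGE2. Pfkm, the muscle type, measured 25.6, 28.2 and 24.1 FPKM untreated, 27.4, 34.9, 38.1 and 33.00 FPKM in SCCM and 27.8, 30.6, 35.7 and 37.02 FPKM in PGE2. Pfkp, the platelet type, was the most abundant and stayed between 197 and 264 FPKM in all libraries except untreated replicate 3, at 126 FPKM. Pfkl therefore ran from 6.14% of the summed subunits in PGE2 replicate 4 to 31.4% in untreated replicate 3.

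Of the later enzymes, Gpi, which isomerizes glucose phosphate, was the most abundant listed transcript and ranged from 466 FPKM in PGE2 replicate 4 to 1345 FPKM in untreated replicate 3. Aldoc, the aldolase of brain, measured 66.5, 81.4 and 86.00 FPKM untreated, 73.4, 24.3, 22.5 and 43.6 FPKM in SCCM and 75.96, 81.2, 26.7 and 18.1 FPKM in PGE2, and its share of Aldoa and Aldoc together was 28.4 to 32.2% untreated and 17.1 to 20.5% in SCCM replicates 2 and 3 and PGE2 replicates 3 and 4. Tpi1, Pgk1 and Pgam1, which carry the triose steps, ranged from 26.8 to 159.6, 34.3 to 252 and 96.02 to 270.4 FPKM. Eno2, the neuronal enolase, kept a share of 87.4 to 91.6% of both enolases in every library although the summed enolase FPKM ran from 139 to 425. Pkm, the last enzyme before pyruvate, measured 71.2, 77.04 and 70.9 FPKM untreated, 65.6, 47.2, 34.4 and 54.1 FPKM in SCCM and 73.6, 72.98, 42.9 and 29.8 FPKM in PGE2. All 4 SCCM libraries were under the untreated range for Pkm.

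Ldha favours lactate formation and Ldhb its use, and the balance between them differed between cultures. Ldha measured 149, 175 and 155 FPKM untreated, 163, 71.4, 46.8 and 135 FPKM in SCCM and 133, 182, 60.3 and 29.2 FPKM in PGE2. Ldhb measured 37.5, 46.3 and 44.7 FPKM untreated, 47.4, 68.7, 45.1 and 52.9 FPKM in SCCM and 41.8, 50.03, 52.4 and 43.6 FPKM in PGE2. Ldha was 77.6 to 79.9% of the summed FPKM in the untreated libraries, 77.5, 51.0, 50.9 and 71.9% in SCCM replicates 1 to 4, and 76.04, 78.5, 53.5 and 40.1% in PGE2 replicates 1 to 4.

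**Figure D3:**
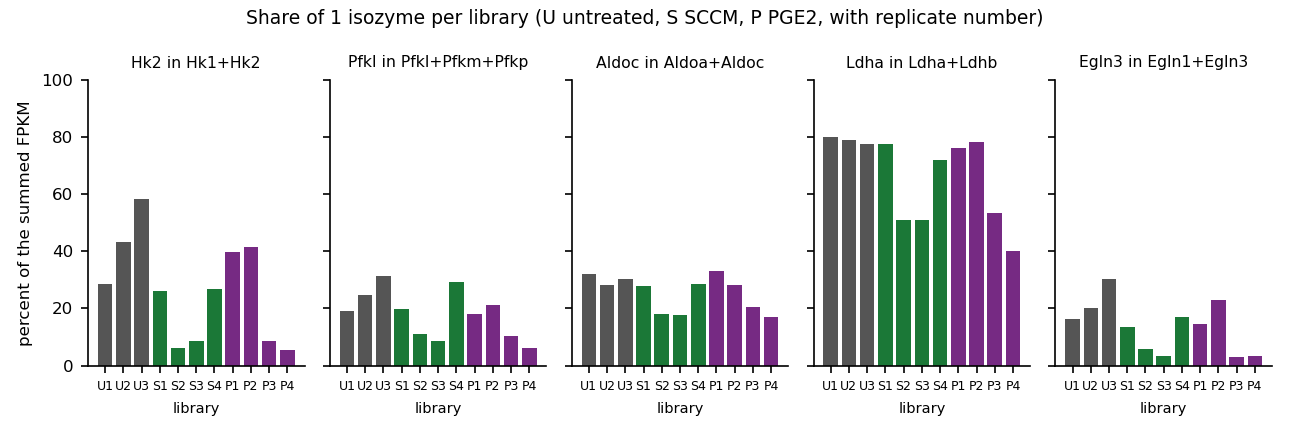
Share of Hk2, Pfkl, Aldoc, Ldha and Egln3 in the summed FPKM of their isozymes, in percent, in each library (U untreated, S SCCM, P PGE2). In S2, S3, P3 and P4 each bar is lower than in any other library, as for Ldha at 51.0, 50.9, 53.5 and 40.1%.

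Regulators of the flow of carbon differed in range. Pdk1, the kinase that keeps pyruvate out of mitochondria by inhibiting pyruvate dehydrogenase, measured 32.6, 42.2 and 47.3 FPKM untreated, 27.6, 8.38, 6.11 and 38.97 FPKM in SCCM and 29.5, 39.9, 6.79 and 5.11 FPKM in PGE2. Pfkfb3 and Pfkfb4, which set the level of an activator of phosphofructokinase, ranged from 9.18 to 19.4 FPKM and from 1.63 to 6.35 FPKM. Pfkfb3 was lowest in untreated replicate 3, at 9.18 FPKM, and nearly as low in PGE2 replicates 4 and 3, at 9.19 and 9.65 FPKM, while Pdk1 was highest in untreated replicate 3.

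Levels between genes should be read with caution, since several of these enzymes have processed copies in rodent genomes and the counting of shared reads is not given in the sources used here. One such copy, Aldoart2, has a row of its own in the table, so reads of Aldoa may be split, and Gapdh is not analysed here. This limit touches Aldoa, Pgk1, Tpi1, Ldha, Eno1, Pkm and Pgam1, whereas differences between libraries of 1 gene are less exposed to it.

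SCCM was compared with no treatment over all genes. HIF targets and the glucose and lactate transporters had lower means, by up to 3.00 on the log2 scale for Adm, while Hk1, Pfkm, Pfkp, Ldhb and Hif1a had higher means. No gene of the list passed the test across all genes. On the log2(FPKM + 1) scale, which understates the change of low genes, 31 of 36 genes had lower means in SCCM, against 61.3% of all tested genes, and the median change was −0.83 against −0.13 over all tested genes. A change of −1 or lower was reached by 16 of 36 genes, against 4.49% of all tested genes.

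Among HIF targets, Adm differed by −3.00 (SE 1.35, 95% interval −5.95 to −0.044) and Ankrd37 by −2.52 (SE 1.09), and Mxi1, P4ha1, Ero1a, Bnip3 and Vegfa by −1.57, −1.52, −1.32, −1.22 and −1.05. Of glycolytic enzymes, Hk2 differed by −1.66 (SE 0.84), Tpi1 by −1.22 and Aldoc by −1.07, whereas Hk1 differed by 0.42 (SE 0.19). Slc16a3, Slc2a1 and Slc2a3 differed by −1.27, −1.01 and −0.89, Pdk1 by −1.31 (SE 0.74), Egln3 by −1.33 and Ldha by −0.77 (SE 0.58). For 7 genes (Ankrd37, Vegfa, Bnip3, Bnip3l, Pkm, Mxi1 and Ero1a) the 4 SCCM libraries lay below all 3 untreated ones, where 5.87% of all tested genes did, and Hk1 alone lay above, by 122.6 against 121.5 FPKM at the nearest pair, where 4.72% of all tested genes did.

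Limma called 0 of the 36 genes and 0 of all 12107 (0%) at an adjusted p under 0.05, and every listed gene had an adjusted p of at least 0.357. At an unadjusted p under 0.05 there were 8 of 36 genes, all lower, against 8.76% of all tested genes that were lower and 4.85% that were higher at that level (13.6% in either direction). Those 8 became 0 without untreated replicate 3, SCCM replicate 2 or SCCM replicate 3, where 401, 699 and 631 of all tested genes were at that level. Counts were 2 without untreated replicate 2 (956 of all tested genes), 14 without SCCM replicate 1 (3060) and 13 without SCCM replicate 4 (1234). Of the 2 and of the 14, 1 gene each was higher. Without SCCM replicate 2 the change of Slc2a1 was −0.52, and without SCCM replicate 3 those of Slc16a3 and Ldha were −0.83 and −0.45, and the list's median was −0.53 without either library. Hk1 was at 0.18 without untreated replicate 3, its lowest library.

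For PGE2 against untreated, the 3 untreated libraries were those already used for SCCM. The same roles had lower means, led by Adm at −2.50 (SE 1.35), Ankrd37 at −2.33 (SE 1.09), P4ha2 at −1.83 (SE 0.90) and Slc16a3 at −1.72 (SE 0.91). Lower means were found for 32 of 36 genes against 67.1% of all tested genes, with a median of −0.86 against −0.16. A change of −1 or lower was reached by 12 genes against 2.73% of all tested genes. Higher means were seen for Hk1 at 0.38 (SE 0.19), Pfkm at 0.32, Pfkp at 0.25 and Ldhb at 0.13, and Hif1a differed by −0.042, or by 0.13 with median-ratio scaling.

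Egln1 at −0.64 (SE 0.27) was the only listed gene for which the PGE2 libraries did not overlap with the untreated ones, against 3.58% of all tested genes that were lower and 1.75% that were higher without overlap. Egln3 differed by −1.46 (SE 0.64), Pdk1 by −1.40, Hk2 by −1.30 and Ldha by −0.97. Limma called 0 of 36 listed genes and 0 of all 12107 (0%), with the lowest adjusted p among the listed genes at 0.538. At an unadjusted p under 0.05 there were 3 of 36, Egln1, Egln3 and Slc2a3, all lower, against 4.04% of all tested genes that were lower and 1.68% that were higher (5.72% in either direction). These 3 became 0 without untreated replicate 3, PGE2 replicate 3 or PGE2 replicate 4, where 185, 255 and 251 of all tested genes were at that level. Counts were 1 without untreated replicate 2 (347 of all tested genes), 9 without PGE2 replicate 1 (933) and 20 without PGE2 replicate 2 (2301). Of the 9, 1 gene was higher. Without PGE2 replicate 4 the changes of P4ha2, Slc16a3, Hk2 and Ldha were −1.20, −0.91, −0.70 and −0.49, and the list's median was −0.49. Without untreated replicate 3, Hk1 was at 0.14 and Pfkp at −0.039, and Ldhb was at 0.039 without untreated replicate 1 and was also closer to 0 without PGE2 replicate 3.

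Deposited FPKM put the median of all genes at −0.13 in SCCM and −0.16 in PGE2, and median-ratio scaling moved these to −0.0015 and −0.0033. With that scaling 30 and 31 of 36 listed genes had lower means, with medians of −0.68 and −0.70. Of all 12107 tested genes, 6068 and 6102 had lower means with it. Pfkfb3 was the gene whose direction in SCCM depended on scaling, at −0.015 as deposited and 0.13 scaled.

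**Figure D4:**
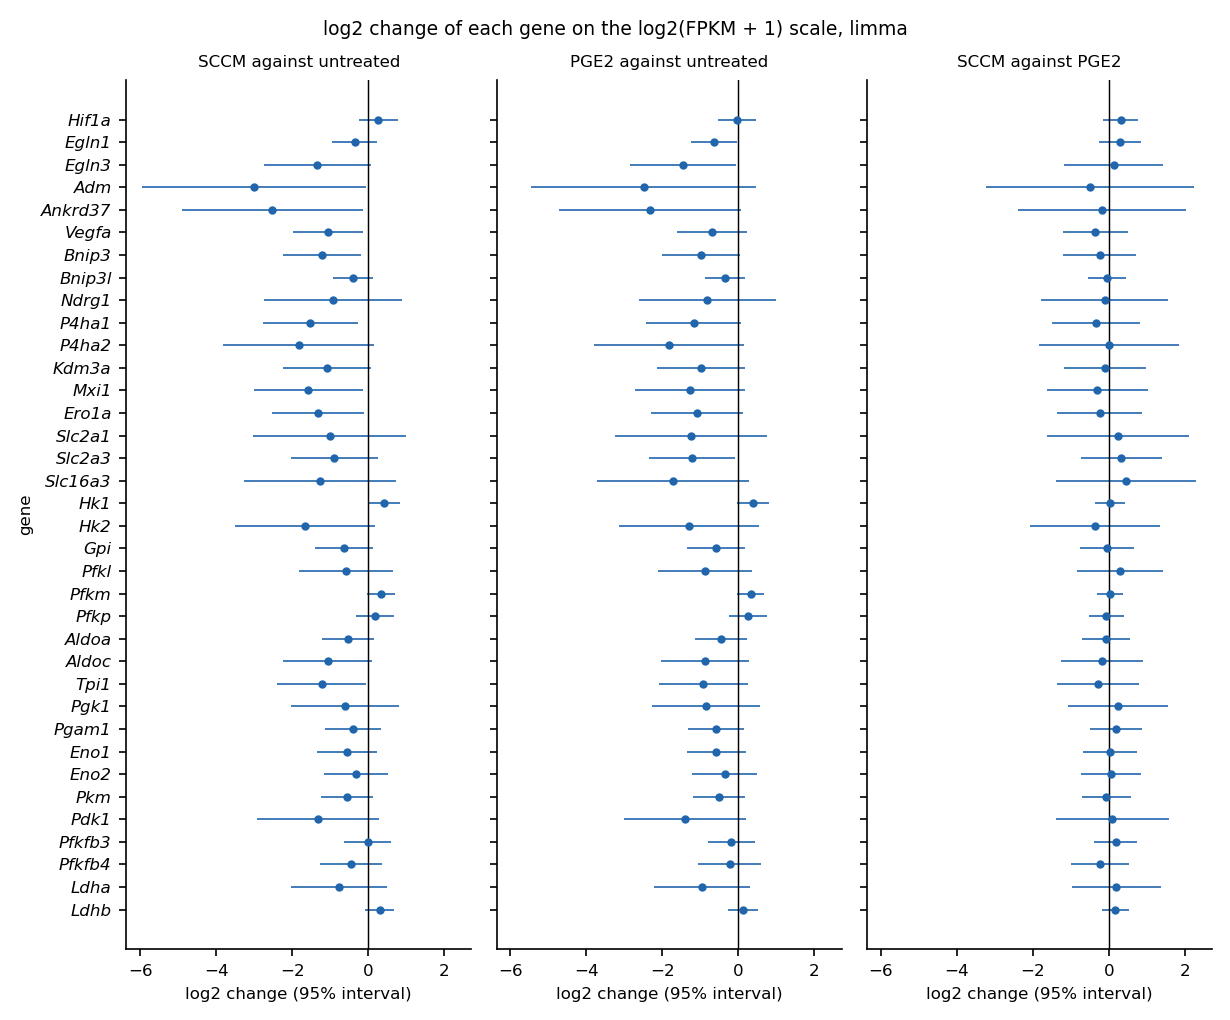
Log2 change of each of the 36 tested genes with its 95% interval (limma, 11 libraries) for SCCM against untreated, PGE2 against untreated and SCCM against PGE2. Most points lie left of 0 in the first 2 panels, with medians of −0.83 and −0.86, and around 0 in the third, and the intervals are widest for Adm and Ankrd37.

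SCCM and PGE2 were also set against each other. None of the listed genes separated these treatments, with 18 of 36 lower in SCCM against 46.6% of all tested genes and a median of −0.020 against 0.020. Changes ran from −0.50 (Adm, SE 1.25, 95% interval −3.24 to 2.23) to 0.45 (Slc16a3, SE 0.84, 95% interval −1.40 to 2.30). The 4 genes with the lowest p were Hif1a at 0.31 (SE 0.21), Egln1 at 0.29 (SE 0.25), Ldhb at 0.17 (SE 0.17) and Vegfa at −0.35 (SE 0.39). Limma called 0 of 36 and 1 of all 12107 (0.00826%), and 0 of 36 were at an unadjusted p under 0.05 against 3.28% of all tested genes. For 0 of 36 genes were the groups free of overlap, against 0.619% of all tested genes lower and 1.59% higher in SCCM, and the intervals leave room for differences of over 1 on the log2 scale for the most variable genes. The count of 18 lower became 4 without PGE2 replicate 2, 10 without PGE2 replicate 1 or SCCM replicate 2, 9 without SCCM replicate 3 and 29 without PGE2 replicate 4, with medians from −0.30 to 0.21.

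HIF targets outside the list also had mostly lower means, and the medians of the rest of carbon metabolism lay near those of all genes. Among 32 tested targets outside the list, 30 had lower means in SCCM (median −0.58) and 32 in PGE2 (median −0.66). Of all tested genes, 61.3% had lower means in SCCM and 67.1% in PGE2. Efna1, a ligand of Eph receptors, measured 38.3 ± 12.0 FPKM untreated (SD, n = 3) and 23.55 ± 4.80 FPKM in SCCM (SD, n = 4), a log2 change of −0.66. Stc2, a secreted glycoprotein, ranged from 25.4 to 71.8 FPKM untreated and from 6.37 to 29.2 FPKM in SCCM (−1.62), and Ca12, a membrane carbonic anhydrase, from 2.39 to 12.4 FPKM untreated, 0.15 to 3.34 FPKM in SCCM (−1.79) and 0.04 to 5.04 FPKM in PGE2 (−1.77). Ppp1r3c, which targets a phosphatase to glycogen, differed by −0.83 in SCCM, and in PGE2 the circadian repressors Bhlhe41 and Bhlhe40 differed by −0.64 and −1.44 and Wsb1 by −0.51.

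Of 15 tested genes of HIF regulation, 8 had lower means in SCCM (median −0.038) and 12 in PGE2 (median −0.16), against 61.3 and 67.1% of all tested genes. Arnt2, the partner subunit typical of neurons, was at 34.2 to 43.03 FPKM untreated, 42.2 to 70.6 FPKM in SCCM (0.50) and 47.8 to 72.7 FPKM in PGE2 (0.52). Arnt, the general partner, was far lower, at 1.86 to 4.00 FPKM untreated, 1.45 to 1.93 FPKM in SCCM (−0.47) and 1.39 to 2.05 FPKM in PGE2 (−0.50). Rbx1, a subunit of the ubiquitin ligase that removes Hif1a, differed by 0.75 in SCCM and Os9 by −0.92. Cited2, which competes with Hif1a for its coactivator, was at 16.7 to 29.3 FPKM untreated, 21.2 to 34.2 FPKM in SCCM and 9.75 to 19.3 FPKM in PGE2, with a log2 difference of 0.77 between SCCM and PGE2 (SE 0.26, limma adjusted p = 1.00).

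In 28 tested genes of the side branches of glycolysis the medians were −0.084 in SCCM (17 lower) and −0.081 in PGE2 (16 lower). For this list and the next, the shares of all tested genes that were lower were 61.3% in SCCM and 67.1% in PGE2. Phgdh, which opens serine synthesis, was at 4.90 to 7.10 FPKM untreated, 8.32 to 10.6 FPKM in SCCM (0.49) and 9.34 to 11.6 FPKM in PGE2 (0.61), whereas Psat1, the next enzyme, differed by −0.78 in SCCM and by −0.72 between SCCM and PGE2. Pygb, the brain glycogen phosphorylase, differed by 0.66 in PGE2. Among 34 tested genes that lead pyruvate into mitochondria and through the citric acid cycle, the medians were −0.051 in SCCM (20 lower) and −0.078 in PGE2 (20 lower). Pdk2, another pyruvate dehydrogenase kinase, differed by −1.20 in SCCM and −0.84 in PGE2, Pc, which makes oxaloacetate, by −0.96 in SCCM, Pdhb by −0.63 in SCCM, and Pdha1, the pyruvate dehydrogenase subunit those kinases act on, by 0.49 in PGE2. None of the genes of these 4 lists passed limma over all genes in any of the comparisons.

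**Figure D5:**
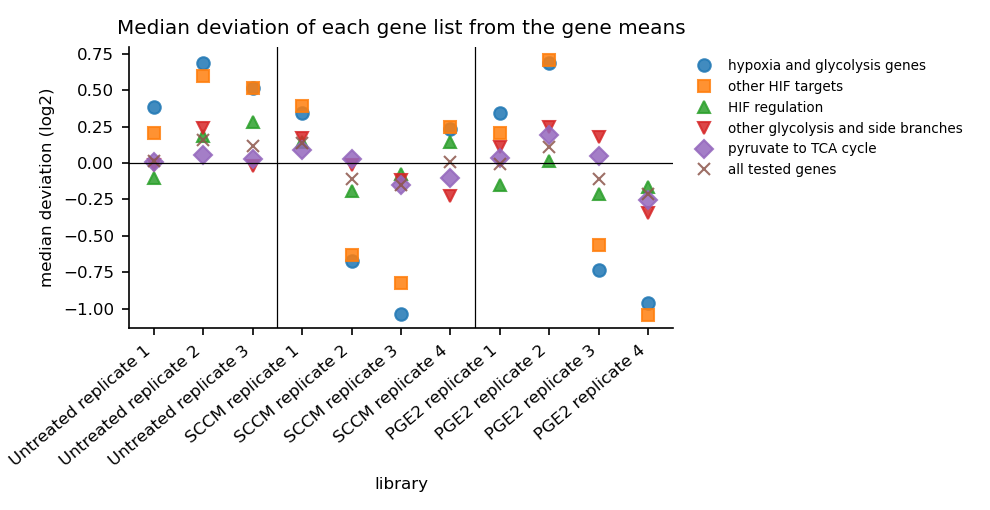
Median over each gene list of the deviation of log2(FPKM + 1) from the gene means, per library. The listed genes and the other HIF targets range from −1.03 and −1.05 at the lowest library to 0.69 and 0.71 at the highest, while the other lists and all tested genes stay between −0.34 and 0.28.

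Signs of other cell types and of culture state were measured in the same libraries. Proliferation markers, 14 of 15 with a row, summed to 30.5 to 69.9 FPKM untreated, 53.6, 19.02, 14.9 and 23.8 FPKM in SCCM replicates 1 to 4 and 34.6, 69.6, 18.9 and 13.7 FPKM in PGE2 replicates 1 to 4. These sums were low in the libraries where the listed genes were low, and also in SCCM replicate 4, where the listed genes' share was 0.810%. Mki67, Top2a and Cdk1 stayed under 1 FPKM in every library, and Pcna led the sum. Macrophage and immune markers, all 16 with a row, summed to 4.18, 19.7 and 46.6 FPKM untreated, 16.4, 0.45, 0.65 and 0.92 FPKM in SCCM and 4.36, 15.01, 0.55 and 0.19 FPKM in PGE2. That sum was mostly Cd68, a lysosomal gene, and 14 of the 16 were under 1 FPKM everywhere, with Ptprc, C1qb and C1qc at 0 in every library.

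Schwann cell and satellite glia markers, 17 of 18 with a row, summed to 90.3 to 215 FPKM untreated, 213 to 330.3 FPKM in SCCM and 159 to 243 FPKM in PGE2. Of these, 9 were under 1 FPKM in every library, among them Sox10, and Gfap was at 0. The sum rested mostly on Ngfr, at 29.05 to 260 FPKM, Pmp22, at 21.6 to 84.95 FPKM, and Glul, at 8.88 to 49.97 FPKM. Fibroblast markers, 12 of 13 with a row and 8 under 1 FPKM everywhere, summed to 396 to 1101 FPKM untreated, 313 to 1036 FPKM in SCCM and 886 to 1094 FPKM in PGE2, mostly through Thy1, which neurons also express. Endothelial and mural markers, 13 of 14 with a row, summed to at most 4.42 FPKM, with Cldn5 and Emcn at 0. Mitochondrially encoded genes made up 3.37 to 5.54% of FPKM untreated, 4.09, 8.06, 3.71 and 10.9% in SCCM replicates 1 to 4 and 5.36, 3.20, 7.86 and 8.14% in PGE2 replicates 1 to 4. The part of these markers in the levels of the listed genes was not tested.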

How the data were processed

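Poly-A RNA was sequenced from stranded libraries of 11 cultures, per the labels' protocols. FPKM values per gene were computed and deposited by the authors with 2 decimals, on rat build Rnor 6.0 per the submitters' processing notes. Which aligner, counter and annotation were used is not given in the sources used here. Of 229565 lines, 207489 held no values and were left out, and groups follow the submitters' labels.

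Genes whose mean reached 1 FPKM (12107) were tested as log2(FPKM + 1) with limma 3.58.1 (R 4.3.3, empirical Bayes with a trend), 1 fit over all 3 groups with Benjamini-Hochberg adjustment over all tested genes and a threshold of 0.05. The two-sided test was checked on simulated data. P-values measure the spread between cultures of a group, each a pool of embryos of 1 pregnant rat. The labels do not say whether cultures of different groups shared a litter, and the main fit treats all cultures as independent. Read counts behind single values are unknown, so no counting interval is given.

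Members and lists were chosen with earlier results of these data known. All members could be named. From each other list up to 4 genes per comparison were named, those with the lowest unadjusted p. Alternatives were a pseudocount of 0.1, no filter or one at 5 FPKM, scaling by median ratios or quantiles, fitting only the groups compared, no trend, the replicate number as a block, and omitting each library in turn. No pair of libraries shared more than 0.653% of values, so each was kept as a replicate. The highest shares, 0.339 to 0.653%, were those of the pairs among SCCM replicates 2 and 3 and PGE2 replicates 3 and 4. Every other pair, within or across treatments, shared at most 0.322%, and the reason was not tested. Tables were made with Python 3.11.15 and pandas 2.3.3, and promoter windows and synonyms came from RefSeq GRCr8.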

Additional observations from a re-analysis of the deposited data

Results flagged for a closer look

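Aldoa, an aldolase of glycolysis, measured 190.35 FPKM in SCCM replicate 1 and 103.52 to 110.98 FPKM in the other 3 SCCM libraries, a sample far from the rest of its group. It was the only such case among 72 screens of a listed gene within a group of 4. Chance gives about 1 in 20 screens, and 1 of 72 is under that rate. Aldoa in SCCM replicate 1 lay inside the untreated range of 140.02 to 205.46 FPKM.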

How the results depend on the processing

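No listed gene reached an adjusted p under 0.05 in any comparison under any alternative run, the lowest adjusted p being 0.155 for SCCM without SCCM replicate 1 and 0.259 for PGE2 without PGE2 replicate 2. Listed genes with lower means numbered 30 to 32 in SCCM and 31 to 33 in PGE2 when each library was left out, with medians of −1.07 to −0.53 and −1.21 to −0.49, and for SCCM against PGE2 they numbered 4 to 29, with medians of −0.30 to 0.21. Of all 12107 tested genes, 7119 to 7691 had lower means in SCCM, 7763 to 8381 in PGE2 and 4673 to 6649 in SCCM against PGE2. Leaving out each library gave 0 to 14 listed genes at an unadjusted p under 0.05 in SCCM and 0 to 20 in PGE2, and 401 to 3060, 185 to 2301 and 248 to 621 of all genes in SCCM, PGE2 and SCCM against PGE2. Genes called among all genes numbered 0 to 1 in SCCM and 0 to 1 in SCCM against PGE2. Fitting only the groups compared gave 15 and 7 listed genes at an unadjusted p under 0.05 in SCCM and PGE2. Of all 12107 tested genes, 2125 and 537 were at that level. The 1 gene called between SCCM and PGE2 became 0 with a pseudocount of 0.1 and with no filter, where 648 genes were at an unadjusted p under 0.05. The cause of these changes was not tested.

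Pfkfb3 in SCCM turned from −0.015 to 0.13 with median-ratio scaling, 0.11 with quantile scaling and 0.0089 with the replicate block, and ran from −0.30 to 0.18 when each library was left out. Hif1a in PGE2 turned from −0.042 to 0.13 and 0.11 with these scalings and ran from −0.19 to 0.097. Pfkp spanned −0.11 to 0.41 in SCCM, and −0.039 to 0.48 for PGE2, and Pfkfb4 in PGE2 from −0.39 to 0.043. Genes below the untreated range in PGE2 replicate 2 numbered 3 with median-ratio scaling, and without 1 of the untreated libraries they numbered 5 to 14 there and 15 to 23 in PGE2 replicate 1, alternatives chosen after seeing the data.

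Sharing a replicate number did not go with alike deviations: of 10 pairs with the same number 3 had a correlation of deviations above 0.1, from −0.51 to 0.49. Some pairs with different numbers were higher, at 0.72 for SCCM replicate 1 with PGE2 replicate 2 and 0.70 for SCCM replicate 2 with PGE2 replicate 3. Others were lower, down to −0.60 for SCCM replicate 1 with PGE2 replicate 3. A pairing of cultures across different numbers was not tested. With the replicate block, genes at an unadjusted p under 0.05 numbered 772 in SCCM and 229 in PGE2, listed genes 2 and 0, and the 1 gene called between SCCM and PGE2 became 0.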
